A study of Mus musculus with 4 samples.

Results

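The transcripts described here are those whose signal was at least 2-fold lower after knockdown of Fxr1 in each of 2 separate experiments in mouse myoblasts. A transcript was taken when a probe for it lay well above background on all 4 arrays and its log2 signal in siFxr1 cells minus that in siControl cells of the same experiment was at or below -1 both times. Where several probes of a gene name met this, the brightest of them stood for the gene. Of 17828 gene names with a probe well above background on all 4 arrays, 129 met the rule, a share of 0.724%. Fxr1 itself and 4 other names found by the rule (Cdk15, Cav2, Chmp5 and Hmmr) were set aside, and the 124 names that remain are called the members. In the opposite direction 126 names, or 0.707%, were at least 2-fold higher in both experiments. The members were chosen by their siFxr1 minus siControl differences in these same 4 samples, so those differences are given as a description and carry no test.

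The cells were C2C12, an immortal mouse line that grows as myoblasts, the dividing precursors of skeletal muscle fibres. They were transfected with a Lipofectamine reagent and either an siRNA against exon 14 of Fxr1 (siFxr1) or a commercial control siRNA (siControl), and RNA was taken 48 hours later. Each experiment gave 1 siFxr1 and 1 siControl sample, so that each condition holds 2 arrays, all of them from the same cell line. A single siRNA sequence was used on the arrays, so effects of losing Fxr1 and effects of that sequence on other transcripts cannot be told apart. With 2 arrays against 2, the smallest two-sided p of an exact permutation test that ignores the experiment is 0.333. A test that permutes within each experiment cannot go lower, so no single transcript can pass 0.05 in either.

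FXR1P, the product of Fxr1, is an RNA-binding protein of the fragile X family. The protein binds mRNAs and can influence their stability or translation, and loss of the gene in mice disturbs heart and skeletal muscle. An siRNA guide strand silences its intended target by near-complete pairing, and bases 2 to 8 of the guide, the seed, can also pair with short matching words in other mRNAs and lower their level. The members are therefore described first beside the sequence of the siRNA and then by the roles of their products.

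The knockdown was visible on both Fxr1 probes. The brighter one read 13.70 and 13.62 in siControl experiments 1 and 2 and 10.27 and 10.83 in siFxr1, and neither siFxr1 array reached the siControl level. Of the 8 myoblast markers looked at, Myod1, Des, Cdh15, Itga7, Chrna1, Cav3 and Pax7 were well above background on all 4 arrays and Myf5 was not. Markers of macrophages, endothelium, fat cells and epithelium were mostly not well above background, with the exceptions of Csf1r, Kdr and Cdh5, while the neuronal genes Snap25, Syn1 and Tubb3 were detected on all arrays. Between 45.4% and 52.9% of the 55681 probes were well above background on an array, and no spot was saturated. The RNA integrity number was 8 for siFxr1 experiment 1 and 9 for the other samples.

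The siRNA is shown with the letters that pair with the start of its guide strand in capitals, followed by a window from each member probe that holds a 7-base word within these letters. The member windows are 29 bases of the 60-base probe as printed in the array design, in the sense of the mRNA, with the word in capitals. The probes lie on the mm9 build at chr11:72590751-72590810 (minus strand) for Cyb5d2, chr14:35224339-35224398 (minus) for Bmpr1a, chr10:43303706-43303765 (plus) for Cd24a and chr4:132456539-132456598 (minus) for Fam76a.
siFxr1 exon 14: gcaauccauacagcuuACUUGAUA
Cyb5d2: caatcaaaaagCTTGATAataaagatgtc
Bmpr1a: gattcatCTTGATAtgtaacactaagtgt
Cd24a: tttccaatttcCTTGATAtacacatacct
Fam76a: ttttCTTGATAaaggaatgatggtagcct

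The listed siRNA has 24 bases, and the exact first base of its guide strand was not given, so 2 guide words were searched on the sense strand of the probes. If the guide starts opposite the last listed base, its seed pairs with ACTTGAT, and if it starts 1 base further 3′ on the mRNA, with CTTGATA. The words overlap by all but their outer letters. CTTGATA was in 4 of the 124 member probes (3.23%), in 1 of the 126 probes of the genes that were at least 2-fold higher (0.794%) and in 59 of the 17828 brightest probes of all gene names (0.331%). ACTTGAT was in none of the member probes, where a count of 0 covers only the 60 bases of each probe, and in 0.365% of the brightest probes. TGGATTG, the word for the listed strand itself, was in 1 member probe, that of LOC100045753 (0.806%), and in 0.466% of the brightest probes.

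The 4 members with CTTGATA fell in both experiments by the rule that chose them. Cyb5d2, which encodes a heme-binding protein, read 11.18 and 10.52 in siControl and 9.39 and 8.92 in siFxr1. Bmpr1a, a type I receptor for bone morphogenetic proteins, read 12.32 and 11.70 in siControl and 10.88 and 10.43 in siFxr1. Cd24a, a small glycosylated surface protein, read 14.40 and 14.83 against 13.17 and 13.40. In none of these did the conditions overlap. Fam76a, whose function is little known, read 12.84 and 13.27 in siControl and 11.78 and 11.77 in siFxr1.

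The same words were looked for in probes that are not member probes. Over the 74 probes that hold CTTGATA and are not members, the median difference was -0.32 in experiment 1, -0.18 in experiment 2 and -0.28 for the mean, while the median over all 23492 probes well above background was 0.01. Of the 74, 2 are other probes of the members NEAT2 and Timeless, and without them the median over 72 probes was -0.28. The 74 exclude by the rule any probe that stood for a member. In both experiments 44 of the 74 probes (59.5%) were lower, against 30.1% of all such probes. For the 95 probes with ACTTGAT the median was -0.02, and for the 106 with TGGATTG it was 0.00. The 51 probes with CTTGATA that lack ACTTGAT had a median of -0.29, the 23 that hold both words -0.20, and the 72 with ACTTGAT alone 0.04. With other signal measures and scalings the median of the 74 probes lay between -0.29 and -0.24. A word in a probe is a description of its letters, the remainder of each mRNA was not searched, and the part of pairing with the siRNA in any result was not tested.

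**Figure D1:**
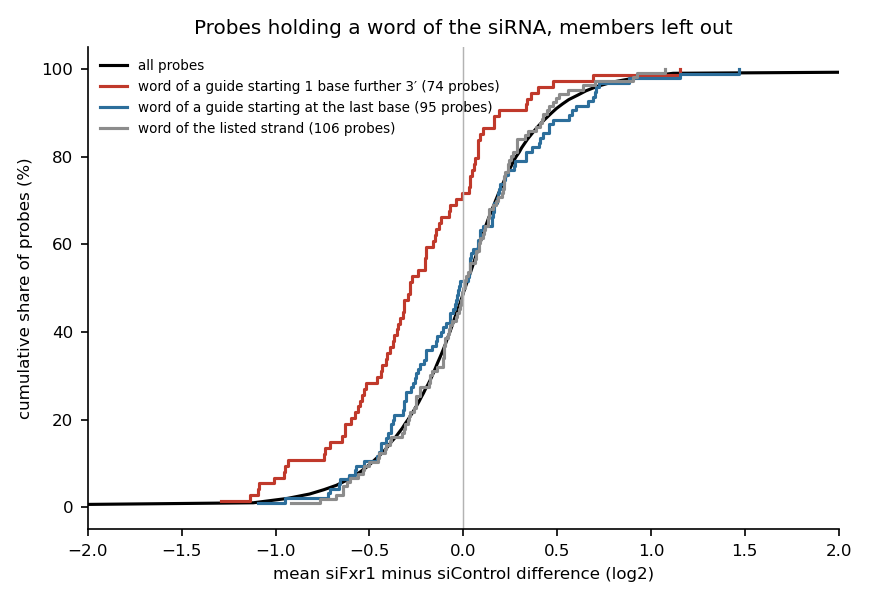
Cumulative share (%) of probes by mean siFxr1 minus siControl difference (log2), for all 23492 probes well above background and for the probes that hold each 7-base word, members left out. The curve of the 74 probes with the word of a guide starting 1 base further 3′ lies to the left of the others, with a median of -0.28.

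Across the members, the mean of both differences ran from -2.31 to -1.01 with a median of -1.32, which is 40.1% of the siControl level, beside a median of 0.02 over the brightest probes of all gene names. By experiment the medians were -1.28 and -1.32. In 58 members the differences of the experiments lay within 0.2 of each other, and in 18 they were more than 0.5 apart. Glb1 was the only member at or below -2 both times. With background-subtracted signals, 249 names met the same rule after quantile normalization and 227 after 75th-percentile scaling. In bulk RNA, fewer cells with a transcript and less of it per cell cannot be told apart. Over all 4 arrays the median level of the member probes was 10.78, beside 10.86 for the brightest probes of all gene names. On the siControl arrays alone these medians were 11.47 and 10.85. The rule also asked for a signal well above background in siFxr1, so nothing is read from these levels.

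The threshold cut through a continuous spread. The 5 members nearest to it were Ttc12, the Gart transcript ENSMUST00000120450, Tinagl1, Usp40 and Rp2h, whose weaker difference passed it by 0.0122 or less on the log2 scale. Usp40 read 10.69 and 11.11 in siControl and 9.68 and 10.11 in siFxr1. The 5 nearest names outside were Abca7, an intergenic noncoding locus on chromosome 5, Tmem194, 2610002J23Rik and Tmx3, which missed it by 0.0065 or less in 1 of the experiments. Abca7 read 13.97 and 15.10 against 12.97 and 13.84. Membership near the edge therefore separates transcripts whose values hardly differ.

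**Figure D2:**
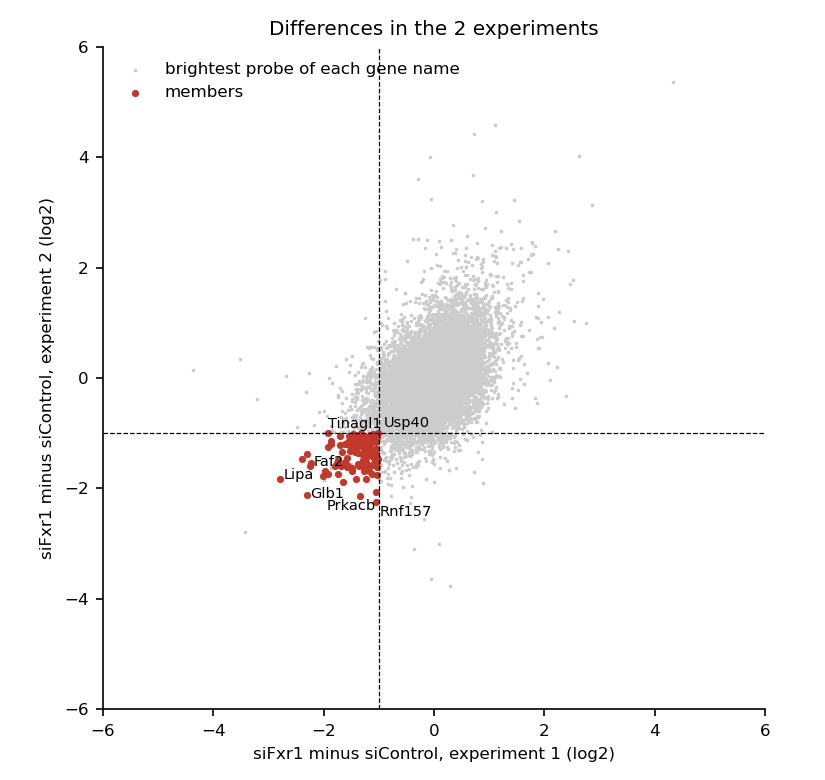
siFxr1 minus siControl difference (log2) in experiment 1 (horizontal) and experiment 2 (vertical) for the brightest probe of each of 17828 gene names (grey) and for the members (red), with dashed lines at the threshold of -1. The members fill the lower left corner down to Lipa and Glb1, and the grey points there include Fxr1 and the other names set aside.

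In 117 members both siFxr1 values lay below both siControl values, as in 14.5% of all probes well above background. In the other 7, Xdh, Pvalb, NEAT1, Neat1, NEAT2, Siah2 and 1810020D17Rik, the experiments differed so much that the conditions overlapped although each experiment showed a drop. Between the siControl arrays, 22 members (17.7%) differed at least 2-fold, compared with 13.1% of all gene names, and the siControl difference of experiment 2 minus experiment 1 ran from -2.28 to 2.38. Across the 124 members this difference followed that between the siFxr1 arrays, with a correlation across genes of 0.88, beside 0.70 over all gene names. The rule holds both differences of a member in a narrow range, and the genes share the 4 arrays, so nothing is read from the comparison.

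The calls of a fit across all probes differed with and without the experiment as a term. With condition as the sole term, limma called 0 probes lower of 23492 (0%) at a B value (log odds of a change) above 0, and 0 at an adjusted p under 0.05, while 1003 probes in either direction had an unadjusted p under 0.05. When the experiment was added as a block, 256 probes (1.09%) were lower at a B value above 0 and 513 (2.18%) at an adjusted p under 0.05. All 124 members are among the 256, and nothing is read from this, since the same contrast chose them.

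By the roles of their products, 13 members were placed with lysosomes, the Golgi and membrane traffic. Their median difference was -1.50, beside -1.44 for the group of metabolism, mitochondria and transport. The order of these medians depends on where single members such as Faf2 were placed, which was done after the values were seen. Lipa encodes lysosomal acid lipase, which frees cholesterol and fatty acids from lipids taken up into lysosomes. Its probe on chr19:34567717-34567776 (minus strand) read 12.22 and 10.79 in siControl and 9.43 and 8.97 in siFxr1. Both siFxr1 values were below both siControl values, and the mean difference of -2.31 was 20.2% of the siControl level. Glb1 encodes lysosomal beta-galactosidase, which also serves as a marker of senescent cells. Its probe on chr9:114383136-114383195 (plus) read 12.53 and 13.19 in siControl and 10.22 and 11.07 in siFxr1, with no overlap and a mean difference of -2.21. Neither Lipa nor Glb1 had another probe on the array.

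2610030H06Rik, now named Vma21, encodes an assembly factor of the proton pump that acidifies lysosomes. It read 13.44 and 13.05 in siControl and 11.51 and 11.31 in siFxr1, and its 3 other probes, all further 3′, were lower in both experiments by mean differences of -1.06, -0.98 and -1.36. Faf2 encodes a membrane protein that helps to draw misfolded proteins from the endoplasmic reticulum, and Man2a1 a mannosidase that trims N-glycans in the Golgi. Faf2 read 11.80 and 12.17 against 9.55 and 10.58, and Man2a1 read 12.73 and 12.48 against 10.80 and 11.22. Neither pair of conditions overlapped. The others in the group were Flot1, Bcap29, Sft2d2, Tmem175, Slc9a8, Slc38a7, Osbpl2 and D16H22S680E (Tango2), with mean differences from -1.53 to -1.17.

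Lipa and Glb1 did not stand for the listed lysosomal hydrolases as a class. Of 46 measured lysosomal hydrolases and activators, Lipa and Glb1 were the only ones at least 2-fold lower in both experiments, 19 were lower both times, 10 were higher both times, and the median difference was -0.08. Over all gene names, 29.2% of the brightest probes were lower both times. Naglu came closest to them with -0.81 and -1.56. Of 31 listed genes of the lysosomal membrane, acidification and sorting none was 2-fold lower both times and the median was 0.10. These did not include 2610030H06Rik (Vma21). Likewise none was 2-fold lower both times among 26 autophagy genes, with a median of -0.09. Nor was any of 38 genes of transport between the endoplasmic reticulum and the Golgi, with a median of 0.07. The lists above without such a gene held no member, so they do not cover the other members of this group. A list of degradation from the endoplasmic reticulum and ubiquitin extraction held the member Faf2. Of its 27 measured genes, 0 were 2-fold lower both times on the gene's brightest probe, and the median was 0.07. In both experiments 8 were lower and 12 higher.

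A further 21 members are signalling enzymes, receptors or their partners. Plcb4, a phospholipase C that makes second messengers downstream of G proteins, read 12.35 and 11.96 in siControl and 10.13 and 10.43 in siFxr1. Prkacb, a catalytic subunit of the cyclic AMP-dependent protein kinase, read 13.33 and 13.98 against 11.98 and 11.83. Stk38, the NDR1 kinase related to the Hippo pathway, read 11.46 and 12.78 against 9.87 and 11.22. In each of these the siFxr1 arrays lay below the siControl arrays, and for Stk38 by a narrow margin, its level being higher in experiment 2 in both conditions. Among 25 measured genes of the NDR-LATS and Hippo pathway only Stk38 was 2-fold lower both times, and the median was 0.04.

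Ppp2r2b, a regulatory subunit of phosphatase 2A, read 9.53 and 10.31 in siControl and 8.47 and 8.24 in siFxr1, and Marcks, a substrate of protein kinase C that binds actin and the membrane, read 15.36 and 14.52 against 13.75 and 12.99. Ndrg1, a gene induced by stress and hypoxia, read 13.83 and 13.80 against 12.27 and 12.20. These were all separated by condition. The remaining signalling members were the kinases Pim1, Dyrk1b, Nek9 and Ulk3, the phosphatases Cdc14b, Inpp5k and Ctdsp2, the myotubularin relative Mtmr11, the guanine nucleotide exchange factor Arhgef1, Rassf7, the collagen receptor Ddr2, Bmpr1a, the interferon receptor chain Ifnar1, the phosducin-like Pdcl and Itpripl2. Over the whole group mean differences ran from -1.88 to -1.09.

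The 14 members in metabolism, mitochondria and transport had a median of -1.44. Xdh, whose enzyme makes uric acid from xanthine, read 10.21 and 12.59 in siControl and 8.47 and 11.04 in siFxr1, so that experiment 2 was the higher in both conditions and the siFxr1 value of experiment 2 lay above the siControl value of experiment 1. Pgm2 (RefSeq name Pgm1), a phosphoglucomutase of glycogen and glucose use, was among the brightest members at 15.26 and 14.96 against 13.52 and 13.47. A transcript annotated as Cox16, an assembly factor of cytochrome c oxidase, read 12.11 and 10.99 against 10.53 and 9.38. A brighter probe named Cox16, 121841 bases to the 5′ side, differed by only -0.41 and -0.47. The rest included Me3, Mboat1, Ept1 (Selenoi), Car13, Nudt19, Slc41a3, Hacl1, Guf1, Cyb5d2 and the Gart transcript, with products that include a mitochondrial malic enzyme, enzymes of phospholipid synthesis and a carbonic anhydrase. Of 21 measured genes of purine and xanthine metabolism, only Xdh was 2-fold lower both times on its gene's brightest probe, and the median was -0.07.

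The nucleus, transcription, splicing and DNA repair accounted for 15 members, with a median of -1.32. Dem1 (Exo5), an exonuclease that repairs crosslinked DNA, read 12.70 and 12.42 in siControl and 10.40 and 11.04 in siFxr1. Hmgn2l6, a copy of the nucleosome-binding protein gene Hmgn2, read 14.51 and 15.19 against 12.77 and 13.46. The 4 probes assigned to Hmgn2 itself had mean differences from -1.34 to -0.86, and signal of the copy and of the parent gene may not be separable on these probes. Brca2, which loads the recombinase onto broken DNA, read 9.80 and 10.22 against 8.56 and 8.83, with no overlap.

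Brca2 was the only 1 of 44 measured genes in a list of DNA replication and repair to be 2-fold lower both times. The 44 did not include the members Dem1 and Timeless. Of the 44, 30 were lower in both experiments, beside 29.2% of all gene names, and 0 were higher in both. The median was -0.35, the lowest among the 17 gene lists. Of 41 measured genes of mitosis and the kinetochore, 20 were lower both times and 2 higher, with a median of -0.28 and none 2-fold lower both times. The other nuclear members were the splicing factors Sfrs11 (Srsf11), Srsf1, Celf2 and Son, the zinc finger proteins Zc3h7b and Zc3h6, Rqcd1 (Cnot9) of the deadenylase complex, the Mediator subunits Med8 and Med21, the chromatin regulator Asxl1, Homez and the replication fork protein Timeless.

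Products outside the cell or on its surface made up 11 members, with a median of -1.33. C530028O21Rik (Pianp), a ligand of the receptor PILRα, read 11.63 and 12.06 in siControl and 9.98 and 10.17 in siFxr1. Efemp1, the matrix protein fibulin-3, read 8.77 and 9.82 against 7.28 and 8.19. Both were separated by condition. Among 17 measured elastic fibre and fibulin genes, Efemp1 was the only one 2-fold lower both times and the median was -0.14. Tinagl1, Thbs3, Adamtsl4, C1qtnf1, Vegfb, Gm5077 (C1s2), Cd24a, 4632428N05Rik (Vsir) and Lst1 completed the group.

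The 15 members of the cytoskeleton, cilia and contractile apparatus had a median of -1.17. They were the microtubule-linked Eml2, Kif1b, Pafah1b1, Mtap2 (Map2), 2610110G12Rik (Atat1, which acetylates tubulin) and Agtpbp1 (which removes glutamates from it), the membrane and actin proteins Epb4.1l3 and Vill, the ciliary genes Bbs12, Cys1, Rp2h (Rp2), Pde6d and Ttc12, and the muscle genes Tnni3 and Pvalb. Pvalb, a calcium buffer of fast muscle fibres, read 11.47 and 9.19 in siControl and 9.61 and 7.99 in siFxr1, so that the siFxr1 value of experiment 1 exceeded the siControl value of experiment 2. Tnni3, the cardiac troponin I, read 9.08 and 8.40 against 7.91 and 7.27. None of the 43 measured genes in a list of actin, myosin and focal adhesion was 2-fold lower both times, and their median was -0.08. That list did not include Vill.

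Protein turnover accounted for 5 members, the ubiquitin ligases Rnf157 and Siah2, the deubiquitinase Usp40, Pppde1 (Desi2) and the chaperone Dnaja2. Rnf157 had the most unequal differences among the 15 lowest members, reading 9.69 and 10.30 in siControl and 8.64 and 8.05 in siFxr1, or -1.05 and -2.25. Bmf, a promoter of cell death, and Ifit2, an interferon-induced gene, had mean differences of -1.45 and -1.21. The Lipa and Ifit2 probes lie 82.5 kb apart on chromosome 19.

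Of the 21 members with other roles or none known, Armcx5, an X-linked gene with armadillo-like repeats, read 10.85 and 10.26 in siControl and 8.84 and 8.49 in siFxr1. Of 14 measured genes of the armadillo families it was the only one 2-fold lower both times, and the median was -0.04. Gm8878, a predicted gene, read 9.95 and 9.46 against 8.18 and 7.92. The transcript ENSMUST00000036295, with a mean difference of -1.83, is annotated as Cdk15, one of the names set aside, and is counted but not described further. The remainder were D030063E12, Dnase1l1, Ccdc127, LOC100045753, Tmem80, 2810021B07Rik (Mplkip), BC031181, Fam76a, 2310022B05Rik, Tpd52, LOC100045143, Fam131b, D430042O09Rik, ENSMUST00000100518, ENSMUST00000031781, Gm7102, 1300010F03Rik (Vwa8) and 1810020D17Rik (Aamdc).

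**Figure D3:**
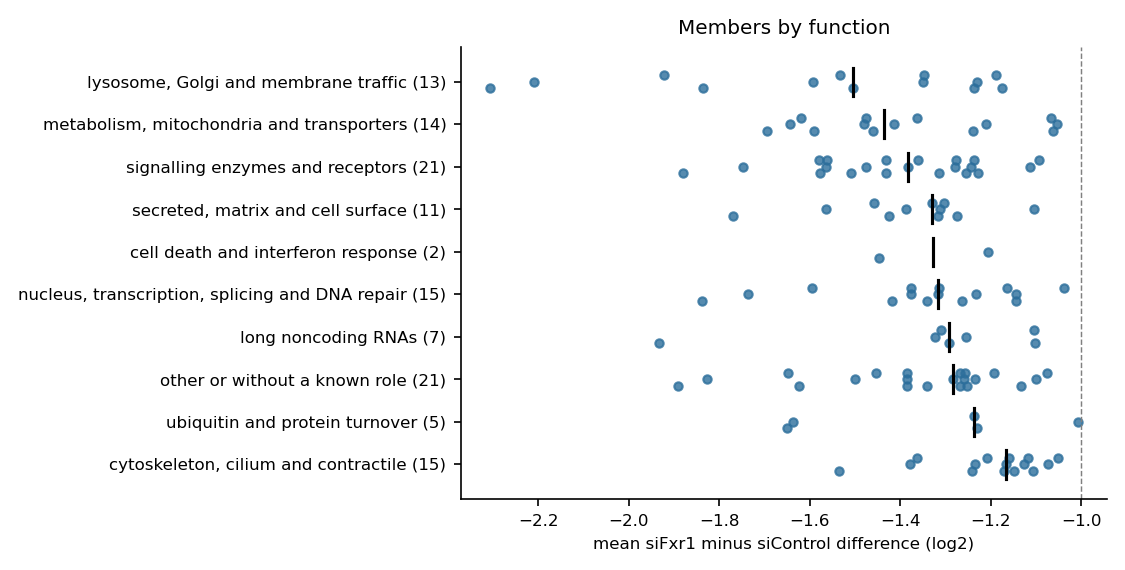
Mean siFxr1 minus siControl difference (log2) of each member, by the role of its product, with the number of members in brackets and the median as a black bar. The values of all groups overlap, and the medians run from -1.50 for lysosome, Golgi and membrane traffic to -1.17 for cytoskeleton, cilium and contractile. Roles were assigned after the values were seen, and the order of the medians depends on single assignments.

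Among the noncoding members, 1810058I24Rik had the third lowest mean difference, -1.93, reading 9.96 and 8.54 in siControl and 7.57 and 7.07 in siFxr1. It is set here with the noncoding RNAs by its older annotation, although a small mitochondrial peptide has been ascribed to the locus. NEAT1 and Neat1 are names for probes of the same RNA, the scaffold of nuclear paraspeckles, and NEAT2 is Malat1, a neighbouring nuclear RNA. NEAT1 read 13.39 and 15.72 in siControl and 12.35 and 14.12 in siFxr1, and NEAT2 10.57 and 12.81 against 9.04 and 11.76. Both RNAs were higher in experiment 2 than in experiment 1 in each condition, by more than they differed between conditions. The other noncoding members were 3 intergenic loci on chromosomes 17, 13 and 2, with mean differences of -1.31, -1.10 and -1.10. On chromosome 17 the siControl values were 11.62 and 11.49 and the siFxr1 values 10.15 and 10.34.

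**Figure D4:**
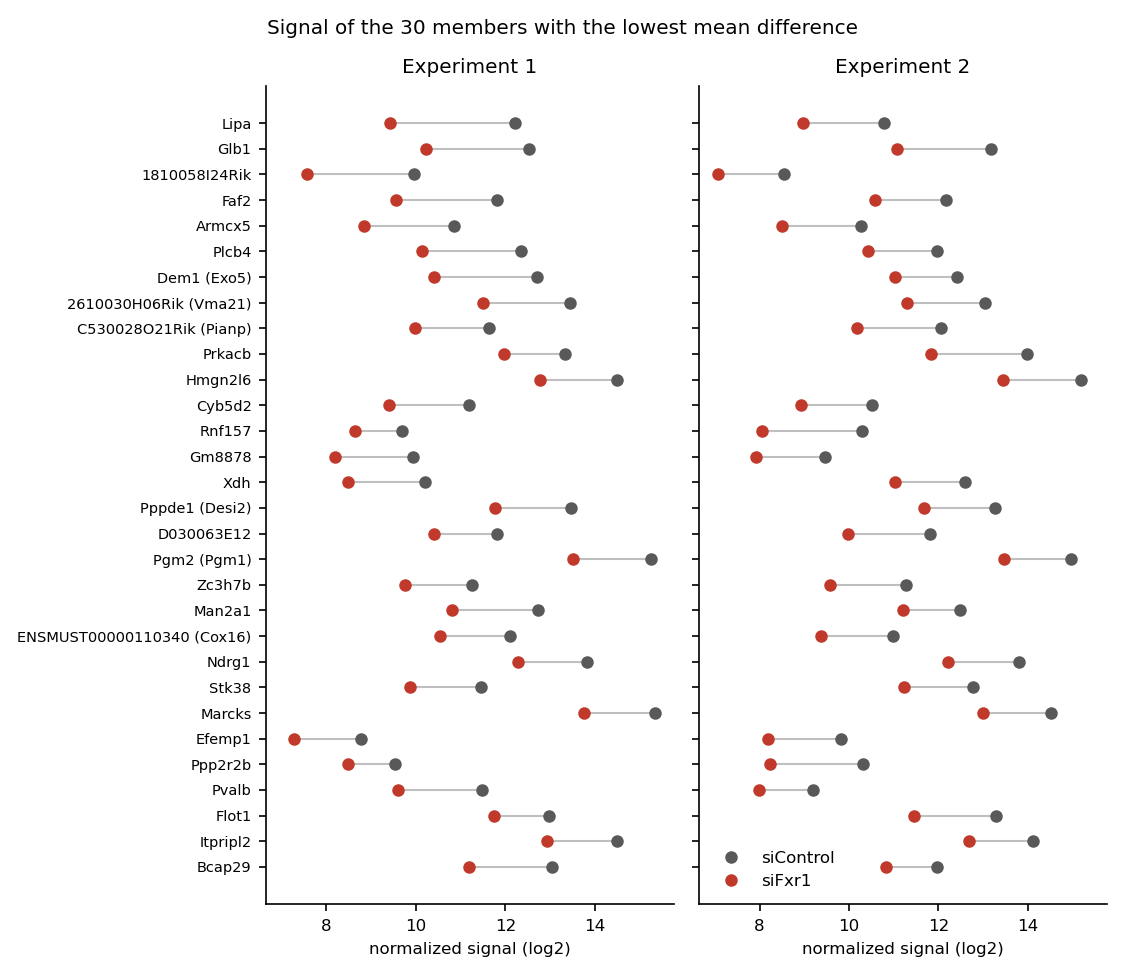
Normalized signal (log2) in siControl (grey) and siFxr1 (red) in each experiment for the 30 members with the lowest mean difference, leaving out the transcript annotated as Cdk15. Each line joins the samples of an experiment, and the red point lies at least 1 unit to the left of the grey one throughout.

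Other probes of the same genes show whether the drop extended along the transcript, although they were hybridised with the same RNA and went through the same rule. Of the 124 members, 60 had no other probe and 11 had others that were not well above background on all 4 arrays. The remaining 53 had 89 other probes, 85 of them distinct because NEAT1 and Neat1 share theirs. Of the 89, 75 (84.3%) were lower in both experiments, against 30.1% of all probes well above background, 8 were higher in both and 6 were mixed. At least 2-fold lower in both were 24 of the 89 (27.0%), against 0.63% of all such probes, and the median mean difference was -0.88. Without the siControl array of experiment 2 that median was -0.54. The 24 met the rule themselves, and a gene entered if any of its probes did. The shares are therefore partly set by the rule and are given as a description. Among the 89 are the NEAT1 and Neat1 member probes, each counted for the other name. A probe named Cdk15, a name set aside, is also among them.

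The noncoding loci weighed on these counts, since their probes were tiled side by side over short stretches and some share 25 bases or more with one another. Without those 5 names, 46 of 60 other probes (76.7%) were lower in both experiments and 7 (11.7%) at least 2-fold lower in both. Their median was -0.75. The probe named Cdk15 is among both the 46 and the 7, and in the later counts by member, distance and accession. All 9 other probes of the locus on chromosome 17 were at least 2-fold lower both times. The rule placed the member probes at or below -1, so the sizes of member and other probes are not compared.

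In some members, named here after their values were seen, another probe differed at least 2-fold in both experiments as well. The other Dnase1l1 probe differed by -2.08 and -1.35, that of Itpripl2 by -1.43 and -1.87, and that of 4632428N05Rik by -1.38 and -1.12. In Plcb4 the 2 other probes differed by -1.55 and -1.32 and by -0.83 and -1.50. The other Prkacb probe differed by -0.95 and -1.44. In all, 41 of the 53 members had all their other probes lower in both experiments.

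In 12 members at least 1 other probe was not lower in both experiments, and in 7 of these at least 1 was higher in both. Son, a splicing cofactor, had its member probe at -1.52 and -1.32 and its other, brighter probe at 0.46 and 0.64. Tmem80 had -1.43 and -1.34 on the member probe and 0.39 and 0.50 on the other. Both other probes of Ctdsp2 were higher, by 0.18 and 0.08 and by 0.19 and 0.18, against -1.01 and -1.47 on the member probe. For these genes the array gave opposite signs for different parts of the locus.

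In some genes the disagreement followed the position of the probes. Srsf1 was at -1.05 and -1.28 on the member probe and at -1.73 and -0.99 on a probe 82 bases further 3′, but at 0.81 and 0.04 on a brighter probe 2467 bases to the 5′ side. Pafah1b1, a dynein regulator, was at -1.14 and -1.09 on the member probe and at -1.01 and -0.97 on one 93 bases further 3′, but at 0.04 and -0.01 on a brighter probe 3382 bases to the 5′ side. Agtpbp1 had -0.68 and -0.83 on a nearer and 0.11 and 0.55 on a farther probe, both 5′ of the member probe. Ifnar1 did not follow this order, with -0.37 and -0.23 on the farther and 0.08 and 0.00 on the nearer of 2 probes to the 5′ side. Both other probes of 1300010F03Rik, far to the 5′ side, were at 0.07 and 0.59 on the nearer and at -0.16 and 0.35 on the farther.

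Distance was measured on mm9 along the strand and includes introns. Leaving out the 5 noncoding names, all 13 other probes within 1000 bases of the member probe were lower in both experiments. Their median was -0.99. Among the 13, the Thbs3 probe lies 15 bases from the member probe and shares 25 bases or more with it. Farther away, 32 of 46 (69.6%) were lower in both, with a median of -0.57. Other probes with the accession of the member probe were lower in both in 35 of 40 cases and those with another accession in 11 of 20.

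**Figure D5:**
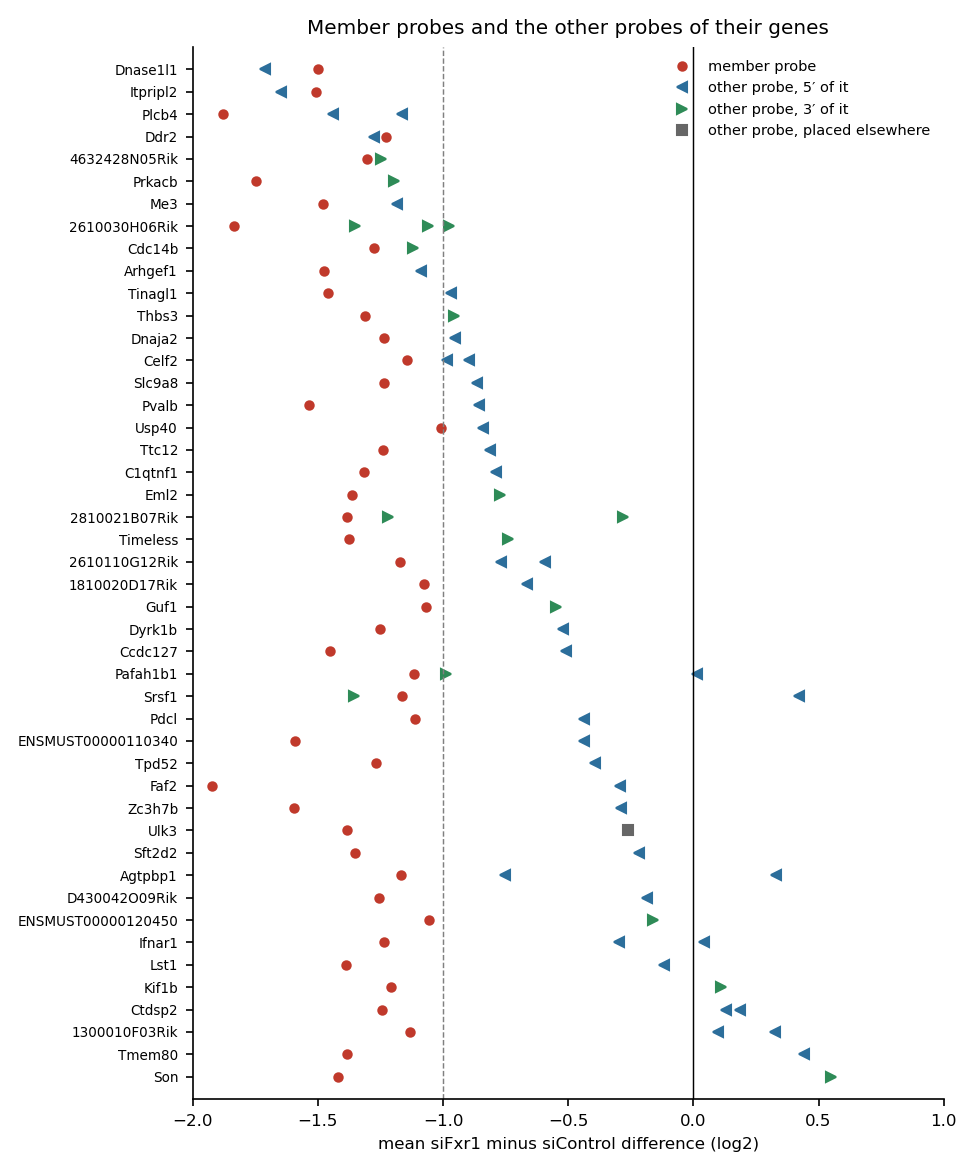
Mean siFxr1 minus siControl difference (log2) of the member probe (red circles) and of each other probe of its gene that lay well above background, 5′ (blue) or 3′ (green) of it, leaving out the 5 noncoding names, the transcript annotated as Cdk15 and 1 further member. Most other probes lie between the member probe and 0, and every other probe shown for Son, Tmem80, Ctdsp2, 1300010F03Rik and Kif1b lies above 0, as does 1 each for Srsf1, Agtpbp1, Ifnar1 and Pafah1b1.

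Several members rest on a probe whose gene is uncertain or whose drop was not shared by a brighter probe. The Ulk3 member probe is placed by the array on chromosome 5, while RefSeq has the gene on chromosome 9, and its other probe differed by only -0.19 and -0.33. LOC100045143 is described by the array as similar to Tpd52, another member. The array places the LOC100045143 probe on chromosome 8 and the Tpd52 probe on chromosome 3. Whether the signals of these 2 probes are separate was not tested. In Faf2 and Zc3h7b the other, brighter probe differed by -0.38 and -0.20 and by -0.27 and -0.31, far less than the member probes. In 17 members the brightest probe under the same gene name was not the one that fell at least 2-fold.

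The member genes were spread over 20 chromosomes, with the most, 11, on chromosome 7. Within 200 kb of one another lay the probes of Ifnar1, the Gart transcript and Son on chromosome 16, Flot1 and 2610110G12Rik on 17, NEAT2 and Neat1 on 19, Lipa and Ifit2 on 19, the chromosome 2 locus and Asxl1, and Rassf7 and Tmem80 on 7. The median GC content of the member probes was 40.0%, against 43.3% over the brightest probes of all gene names and 41.7% over the genes at least 2-fold higher.

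RefSeq promoters (build GRCm38.p6, 250 bases before to 50 bases after a start) were found for 94 of 117 member symbols and 10017 gene symbols in all. Searched on both strands, GGGCGG, the core of the Sp1 box, was in 72.3% of the members' promoters and 66.9% of all, and CCAAT in 40.4% and 43.1%. TATAAA was in 9.57% and 9.34%, and TCACGTGA, a core of the element shared by many lysosomal genes, in 2.13% and 2.15%. In the 83 promoters matched for the genes at least 2-fold higher, the shares were 47.0% for GGGCGG and 51.8% for CCAAT. These shares were not tested, and a match says nothing of binding.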

How the data were processed

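Total RNA of the 4 samples was hybridised to 1-colour Agilent mouse arrays, and the authors deposited scanner files from Feature Extraction 10.7.3.1, with spot intensity and background flags, and a table of normalized intensity values. Each column of that table ranks spots exactly as the median signal intensity of its own array (Spearman correlation 1), with no background subtraction visible, so differences of dim probes are understated. Its linear values were taken to log2 here, control spots were left out, and spots of a probe were averaged. All 4 deposited columns were mapped by their labels. siFxr1 and siControl arrays of an experiment shared a slide, so the experiment number pairs samples. Deviations from condition means correlated at 0.71 between arrays of an experiment. The p-values measure only the spread between these 2 experiments.

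limma 3.58.1 in R 4.3.3 was run over 23492 probes with condition as the term, a call being a B value above 0, and with the experiment as a block. Scripts were tested on simulated data. Alternatives were scanner-processed signals, normexp with an offset of 50, 75th-percentile scaling, other filters, thresholds and probe rules, and leaving out arrays. Probe names follow the array, with RefSeq names matched for 118 members. Coordinates are mm9, from the array files. Exon annotation for that build was not used here.

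The members and gene lists were chosen with earlier results of these data known. A list need not hold every member with that role. Named with values were the 15 members with the lowest mean differences, members in a gene list, members with 2 or more other probes that disagreed, and the 5 nearest on each side of the threshold. Other genes named with values and the groups by role were chosen after the values were seen. 1 member is counted but not reported here by name.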

Additional observations from a re-analysis of the deposited data

How the results depend on the processing

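The number of members depended on background subtraction and on the threshold. With background-subtracted signals it was 249 after quantile normalization and 227 after 75th-percentile scaling, and 116 of the 124 members remained under each. A 1.5-fold threshold gave 701 names and a 3-fold threshold 10. Normexp gave 135, uncorrected 75th-percentile scaling 116, either looser background filter 127 and the median over a gene's probes 88. Taking the brightest probe of a gene first, chosen after seeing the data, removed 17 members and added none. The median difference of the members, whose values the rule chose, stayed between -1.41 and -1.30 under the signal alternatives. With each array left out it lay between -1.40 and -1.33. Single members moved more, and their highest difference then ran from -0.25 to 0.07, the latter without the siFxr1 array of experiment 1. limma called 0 probes lower under every alternative (0 to 0 with each array left out) except the experiment as a replicate block, with 256, and the ratios of all array pairs, which share arrays, with 235. The other probes lower in both experiments numbered 74 to 86 under other signals and without a filter, 57 with the same accession, and 46 without the tiled noncoding loci, an alternative added after seeing the data. Their median difference ran from -1.14 to -0.84 under other signals and from -0.88 to -0.54 with each array left out, the latter without the siControl array of experiment 2. Leaving out an array cannot give the counts that need both experiments. The array number, 2 for each condition, limits the precision.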
